A study of Mus musculus with 32 samples.

Results

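The genes described here are 8 small leucine-rich proteoglycans, Dcn, Bgn, Aspn, Fmod, Lum, Prelp, Ogn and Podn, and the large proteoglycan versican, Vcan. They were taken by symbol from a fixed list, 9 of the 23284 genes in each of 2 mouse RNA-seq count tables, and all 9 had enough counts to be tested in both. The first table holds atherosclerotic lesions of the brachiocephalic artery from 4 Oct4 -/- (KO) and 4 wild type (WT) C57BL/6 mice, all fed a Western diet for 18 weeks. The second holds cultured aortic smooth muscle cells, with 3 libraries in each of 8 groups: KO and WT cells, given POVPC (an oxidised phospholipid found in lesions) or vehicle, in hypoxia at 1% oxygen or in normoxia. Oct4 (Pou5f1) is a pluripotency factor, and the study asked what its loss in smooth muscle cells does to lesions and to these cells. In the published study the deletion was driven in smooth muscle cells by a tamoxifen-inducible Cre under the Myh11 promoter, on an Apoe -/- background that the controls also carried, whereas the labels used here give only the Oct4 genotype. The labels name 1 primary line per genotype, so genotype and line cannot be told apart in culture, and the p-values there measure the spread between triplicates of a line. The lesion samples are labelled as a mixture of cell types, and the dose of POVPC and the length of the exposures are not given in the sources used here.

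Small leucine-rich proteoglycans are secreted proteins with a curved core of leucine-rich repeats, most of which carry glycosaminoglycan chains. They bind fibrillar collagens and set the thickness and spacing of the fibrils, and several of them bind growth factors such as TGF-beta. Decorin (Dcn), biglycan (Bgn) and asporin (Aspn) form class I. Fibromodulin (Fmod), lumican (Lum) and prolargin (Prelp) belong to class II, osteoglycin or mimecan (Ogn) to class III, and podocan (Podn) to class V. Versican is a hyaluronan-binding proteoglycan of the artery wall that fills the space between fibres and is abundant in proliferating smooth muscle. In the artery, decorin, biglycan and versican are among the main proteoglycans of the intima, where their chains can retain lipoproteins.

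In the coordinates of the count tables (mm9), these genes form neighbouring pairs on 3 chromosomes. Dcn (chr10:96942134-96980796) and Lum (chr10:97028135-97035337) lie 47.3 kb apart, Aspn (chr13:49639812-49662931) and Ogn (chr13:49703440-49719869) lie 40.5 kb apart, and Prelp (chr1:135806882-135817978) and Fmod (chr1:135934092-135944854) lie 116 kb apart. Omd, a small leucine-rich proteoglycan gene outside the 9, lies between Aspn and Ogn (chr13:49678116-49687978). Bgn (chrX:70728974-70741275), Podn (chr4:107687398-107704695) and Vcan (chr13:89794915-89882117) stand apart from the rest. No other gene of the tables shared an exon base with any of the 9.

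RefSeq promoter windows on GRCm38.p6, a later build than the files' mm9, were matched for 7 of the 9 genes by symbol, not for Dcn or Lum, with 2 windows for Podn. Only the 250 bases before the start were read. Shown are Aspn and Ogn, neighbours that fell together in hypoxia, Fmod, which also fell, and Vcan, which moved least.
Aspn, chr13:49544193-49544442, plus strand: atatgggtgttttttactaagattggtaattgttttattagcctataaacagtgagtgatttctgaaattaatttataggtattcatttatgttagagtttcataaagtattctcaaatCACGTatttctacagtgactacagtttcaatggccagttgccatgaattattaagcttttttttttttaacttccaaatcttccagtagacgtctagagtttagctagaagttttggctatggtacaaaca
Ogn, chr13:49607765-49608014, plus strand: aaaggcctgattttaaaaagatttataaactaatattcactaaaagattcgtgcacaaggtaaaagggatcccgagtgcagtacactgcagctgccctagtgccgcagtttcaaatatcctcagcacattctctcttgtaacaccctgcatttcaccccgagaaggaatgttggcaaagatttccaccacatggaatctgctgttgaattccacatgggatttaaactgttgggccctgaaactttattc
Fmod, chr1:134037004-134037253, plus strand: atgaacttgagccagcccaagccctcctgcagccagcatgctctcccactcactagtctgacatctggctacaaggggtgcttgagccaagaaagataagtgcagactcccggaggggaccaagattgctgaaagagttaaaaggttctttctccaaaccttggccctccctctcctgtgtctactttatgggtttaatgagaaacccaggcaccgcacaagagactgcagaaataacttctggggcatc
Vcan, chr13:89742513-89742762, minus strand: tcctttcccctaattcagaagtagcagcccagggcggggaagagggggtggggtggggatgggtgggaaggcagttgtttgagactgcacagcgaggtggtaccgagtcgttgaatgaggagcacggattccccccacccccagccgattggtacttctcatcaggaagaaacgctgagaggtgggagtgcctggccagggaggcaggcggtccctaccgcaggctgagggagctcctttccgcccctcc
Capitals mark the 5-letter cores ACGTG and GCGTG, the centre of the site that hypoxia-inducible factors bind, searched on both strands, and would mark a CArG box, the serum response factor site of smooth muscle genes, were any present. Of these 4 windows, the Aspn window held a core, ACGTG on the minus strand 131 to 127 bases before the start, and the Ogn, Fmod and Vcan windows held none. Over all 8 windows of the genes, 4 held a core, in 3 genes (Aspn, Bgn and Podn), against 38.6% of all 32851 windows of this length. No CArG box was found in any of the 8 windows, and 1.47% of all windows held one. The letters CAGAC, a site of SMAD proteins, the effectors of TGF-beta, was found in 2 genes, Fmod and Prelp, against 42.2% of all windows, and the longer SMAD site GTCTAGAC in none, against 0.167%. The Aspn and Ogn windows were poor in G and C (30% and 42%), and the Vcan window was rich in them (62.4%). These matches describe letters only.

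Lesion libraries held 6526099 to 11137414 counts and culture libraries 8063121 to 30231799 counts, and these 9 genes took 0.353 to 0.634% of lesion counts and 0.0935 to 1.01% of culture counts. Levels are given as CPM, counts scaled by library total and TMM factor, and differences as log2 fold changes with their standard error (SE) from edgeR's quasi-likelihood test. A gene is called at an FDR, the p-value adjusted over all genes of the table, under 0.05. Pou5f1 itself had 0 to 2 counts in KO culture libraries, 0 to 1 in WT culture libraries, 0 in each KO lesion and 0 to 3 in WT lesions, too few to check the genotype labels. In culture, the library KO vehicle normoxia 3 stood apart from KO vehicle normoxia 1 and 2 in its share of the ribosomal precursor Rn45s (8.02% against 1.59 and 1.29%), and WT POVPC hypoxia 2 was the shallowest. Macrophage, endothelial, adipocyte and thymocyte markers summed to under 10 CPM in every culture library, and 1 or more of the macrophage genes Tyrobp, Trem2, C1qa and C1qb had no count in each of the 8 groups. Summed contractile smooth muscle markers reached 144 to 201 CPM in KO and 380 to 437 CPM in WT cells under vehicle in normoxia, against 5229 to 11260 CPM in lesions, so the contractile genes of the labelled cell type were low in culture.

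Per kilobase of exon, which allows genes to be compared, Dcn was the highest of the 9 in cultured cells under vehicle in normoxia, at 1434 ± 143 CPM per kb in KO cells and 2086 ± 10 in WT cells (SD, n = 3). Ogn followed at 621 and 908, and Bgn at 304 and 622 CPM per kb, in KO and WT cells in that order. The other 6 genes lay far below, between Podn at 1.94 CPM per kb and Aspn at 110 in KO cells, and between Podn at 3.13 and Fmod at 35.8 in WT cells. In lesions Bgn and Dcn were highest, at 725 and 689 CPM per kb in KO and 806 and 521 in WT lesions, followed by Lum at 504.1 in KO and 295 in WT lesions. Lum was far lower in culture, at 37.0 CPM per kb in KO and 15.4 in WT cells under vehicle in normoxia. The 2 tables were counted and scaled apart, so the levels in lesions and cells are set side by side without a test.

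**Figure D1:**
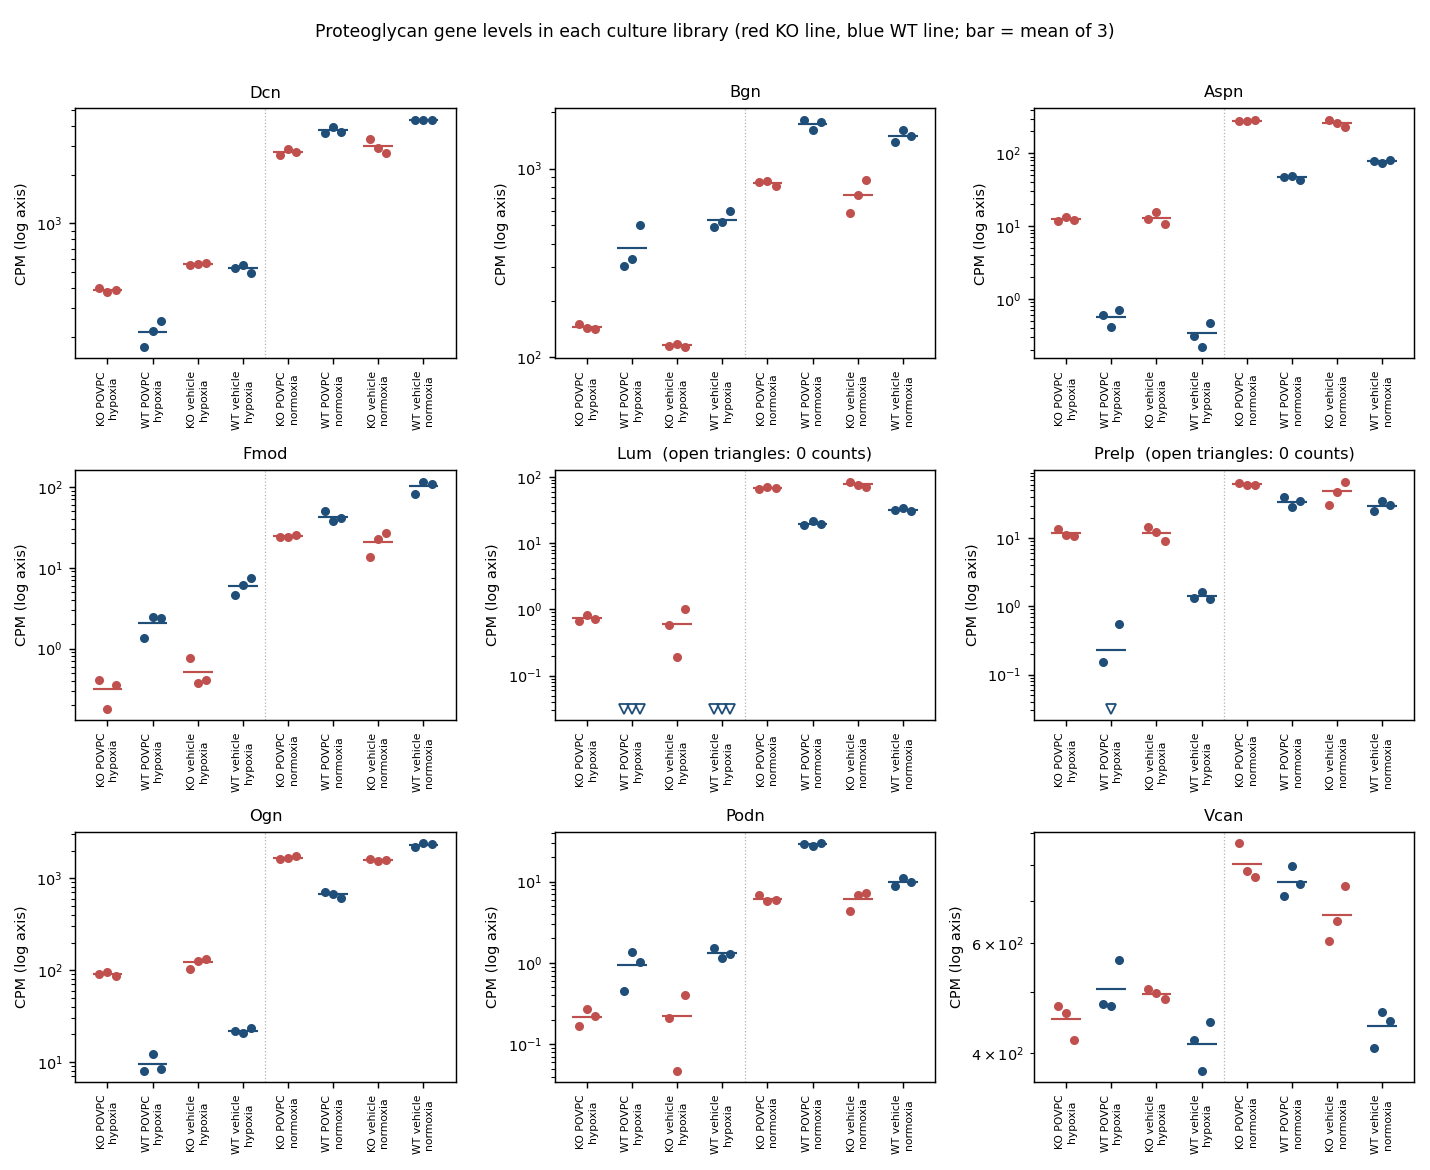
CPM of each gene (log axis) in the 3 libraries of each culture group, KO red and WT blue, hypoxia groups left of the dotted line and normoxia groups right of it. Bars are group means and open triangles are libraries with 0 counts. In 8 of the 9 panels every hypoxia library lies below every normoxia library of its line and treatment, and in the Vcan panel the WT vehicle groups overlap.

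Hypoxia lowered the transcripts of all 8 small leucine-rich proteoglycans in both lines, with and without POVPC, while Vcan moved little. In KO cells under vehicle 9 of 9 genes were lower in hypoxia, and in WT cells under vehicle 8 of 9, with none higher in either. Of all genes tested, 32.8% were called lower in KO cells and 35.3% in WT cells, where 48.1% of the calls were higher, or 36.4% with library size alone. Hypoxia and normoxia libraries did not overlap for 9 of 9 genes in KO cells and 8 of 9 in WT cells, against 66.4% and 72.8% of all genes. By size, 7 of 9 fell at least 4-fold in KO cells and 7 of 9 in WT cells, against 7.26% and 7.24% of all genes. The median log2 fold change of the 9 was -3.70 in KO cells and -4.08 in WT cells under vehicle, against 0.02 and -0.03 over all genes tested, and it was the same with Lum at the bound given below. Signs of RNA quality also differed: Rn45s took 2.95 to 4.06% of counts in KO hypoxia against 1.29 to 8.02% in KO normoxia, and 2.11 to 3.47% in WT hypoxia against 1.31 to 1.5% in WT normoxia, under vehicle. Multimapping reads per assigned read reached 8.07 in KO vehicle hypoxia 3, where Rpph1 took 14.2% of counts, and 1.56 to 9.24 in WT POVPC hypoxia against 0.743 to 1.2 in WT POVPC normoxia. The counts of genes called lower under vehicle were the same without Rn45s and Rpph1 and without the 3 shallowest libraries, KO vehicle hypoxia 3 among them. Other differences in RNA quality between the oxygen settings stay in place in these runs, so their part was not tested. In bulk samples, fewer cells of a kind and less RNA per cell cannot be told apart.

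Aspn, which competes with decorin for collagen and binds TGF-beta, had 12.5, 15.9 and 10.8 CPM in KO cells in hypoxia under vehicle, against 290, 258 and 229 CPM in KO cells in normoxia. In WT cells it had 0.315, 0.22 and 0.474 CPM in hypoxia, against 79.5, 74.3 and 80.1 CPM in normoxia. All hypoxia libraries were far below all normoxia libraries, and Aspn fell by 4.29 ± 0.11 on the log2 scale in KO cells (FDR 8.06e-23) and by 7.77 ± 0.17 in WT cells (FDR 5.29e-25), where the hypoxia value rests on 27 counts in 3 libraries. Its chromosomal neighbour Ogn, which encodes a keratan sulfate protein of the artery wall and cornea, had 104, 127 and 134 CPM in KO hypoxia and 1609, 1553 and 1575 CPM in KO normoxia. In WT cells Ogn had 21.6, 20.9 and 23.4 CPM in hypoxia and 2191, 2396 and 2334 CPM in normoxia. No library of one oxygen setting came near the other, and Ogn fell by 3.70 ± 0.11 on the log2 scale in KO (FDR 5.23e-22) and by 6.71 ± 0.12 in WT cells (FDR 3.42e-26).

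Lum, a keratan sulfate proteoglycan of cornea, skin and artery that binds collagen fibrils, left no count in any WT hypoxia library. KO cells had 0.59, 0.191 and 1.02 CPM in hypoxia and 84.9, 74.7 and 70.9 CPM in normoxia under vehicle. WT cells had 0, 0 and 0 CPM in hypoxia and 31.6, 33.9 and 30.4 CPM in normoxia under vehicle. Lum fell by 7.20 ± 0.19 on the log2 scale in KO cells (FDR 1.53e-20), and in WT cells it was at least 816-fold lower in hypoxia, taking 3 counts over the group as the floor (FDR 1.85e-20). Dcn, which lies next to Lum and is the most abundant member, fell less far. It had 554, 565 and 568 CPM in KO hypoxia against 3314, 2919 and 2730 CPM in KO normoxia, and 534, 552 and 497 CPM in WT hypoxia against 4323, 4358 and 4359 CPM in WT normoxia. Dcn fell by 2.41 ± 0.09 in KO (FDR 3.08e-19) and by 3.04 ± 0.09 in WT cells (FDR 1.47e-21).

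Fmod, which steers early collagen fibril growth, averaged 0.516 ± 0.211 CPM in KO hypoxia against 21 ± 6.67 CPM in KO normoxia (SD, n = 3), and 6.03 ± 1.42 CPM in WT hypoxia against 102 ± 18.5 CPM in WT normoxia. It fell by 5.26 ± 0.33 on the log2 scale in KO and by 4.08 ± 0.22 in WT cells. Prelp, which anchors basement membranes to the connective tissue, averaged 12 ± 2.76 CPM in KO hypoxia against 48.3 ± 18.7 CPM in KO normoxia, and 1.42 ± 0.197 CPM in WT hypoxia against 30 ± 4.99 CPM in WT normoxia. Its decrease was the mildest of the 4 class II and III genes in KO cells, at 1.98 ± 0.25 on the log2 scale, and reached 4.42 ± 0.31 in WT cells. The KO normoxia libraries of Prelp spread from 30.1 to 67.4 CPM with library 3 the highest. Without that library the KO decrease was 1.66 on the log2 scale (FDR 7.14e-07).

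Bgn, the chondroitin or dermatan sulfate proteoglycan closest to decorin, averaged 116 ± 2.22 CPM in KO hypoxia against 726 ± 143 CPM in KO normoxia, and 537 ± 52.6 CPM in WT hypoxia against 1487 ± 107 CPM in WT normoxia. The decrease was 2.65 ± 0.15 on the log2 scale in KO and 1.47 ± 0.14 in WT cells. Podn, which is known to restrain smooth muscle proliferation and migration in mice, averaged 0.222 ± 0.18 CPM in KO hypoxia against 6.14 ± 1.51 CPM in KO normoxia. In WT cells it averaged 1.33 ± 0.197 CPM in hypoxia against 9.92 ± 1.21 CPM in normoxia. The log2 decrease was 5.02 ± 0.34 in KO and 2.88 ± 0.21 in WT cells, and the KO hypoxia value rests on 10 counts in 3 libraries.

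Vcan had 507, 498 and 488 CPM in KO hypoxia against 605, 649 and 740 CPM in KO normoxia under vehicle. In WT cells the hypoxia libraries (419, 375 and 447 CPM) overlapped the normoxia libraries (408, 465 and 450 CPM). Vcan fell by 0.42 ± 0.08 on the log2 scale in KO cells (FDR 8.3e-05) and was not called in WT cells, where the log2 fold change was -0.09 ± 0.08 (95% interval -0.26 to 0.07, FDR 0.342). Scaling by library size alone lowered the median of all genes by 0.18 in that WT comparison, and there Vcan was called at -0.27 (FDR 0.0393).

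Under POVPC all 9 genes were lower in hypoxia in each line, against 33.9% of all genes in KO cells and 34.3% in WT cells, and no gene of the 9 overlapped between hypoxia and normoxia, against 73.7% and 67.4% of all genes without overlap. At least 4-fold decreases were found for 8 of 9 genes in KO cells and 8 of 9 in WT cells, against 7.3% and 6.26% of all genes. The largest decreases in KO cells were those of Lum (6.53 ± 0.18 on the log2 scale), Fmod (6.23 ± 0.34) and Podn (4.79 ± 0.30). In WT cells Lum was at least 305-fold lower, and log2 fold changes were -6.63 ± 0.43 for Prelp, -6.22 ± 0.17 for Aspn and -6.16 ± 0.12 for Ogn. Prelp was left with 0.151, 0 and 0.547 CPM in WT cells under POVPC in hypoxia, against 39.9, 28.1 and 35.1 CPM in normoxia. Vcan fell by 0.83 ± 0.08 on the log2 scale in KO and by 0.57 ± 0.08 in WT cells, the smallest change of the 9 in both. All hypoxia, POVPC and genotype comparisons are drawn from the same 24 libraries, so their values are not independent of each other.

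**Figure D2:**
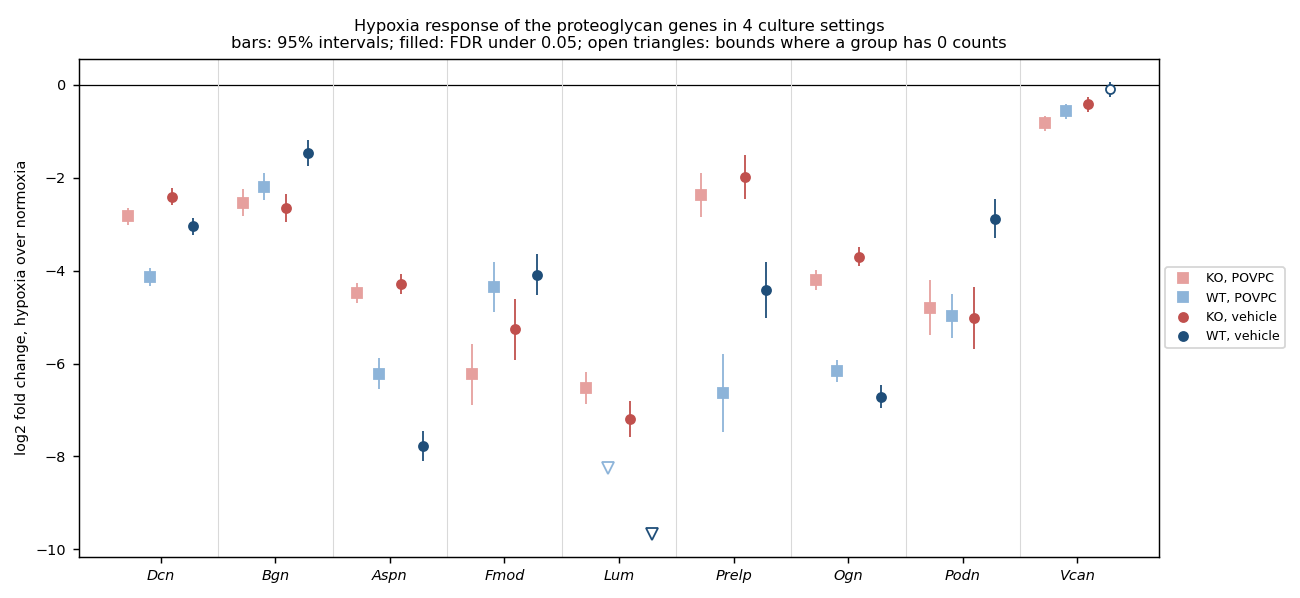
Log2 fold change, hypoxia over normoxia, of each gene (bars, 95% intervals) under POVPC (squares) and vehicle (circles) in KO cells (red) and WT cells (blue). Filled symbols passed an FDR of 0.05, and open triangles mark the bounds for Lum in WT cells. All values lie below 0, and Vcan, between -0.83 and -0.09, lies nearest to it.

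The depth of the hypoxia response differed between the lines for most of the genes, and not in 1 direction. Under vehicle 8 of 9 genes differed in response between KO and WT cells (5 with a smaller decrease in KO, 3 with a larger one), against 39.1% of all genes. KO cells kept more of Aspn (a difference of 3.48 ± 0.22 between the log2 responses, KO minus WT), Ogn (3.02 ± 0.14), Prelp (2.44 ± 0.40) and Dcn (0.63 ± 0.12). Lum differed in the same direction (FDR 0.000135), with no fold given because WT hypoxia had 0 counts. KO cells lost more of Podn (-2.14 ± 0.48), Bgn (-1.18 ± 0.20) and Vcan (-0.33 ± 0.12). The Vcan call was lost with library size alone (-0.23, FDR 0.288) and without WT vehicle normoxia 1, KO vehicle normoxia 3, WT vehicle hypoxia 1 or WT vehicle hypoxia 3 (FDR 0.0539 to 0.0987). Fmod had a difference of -1.17 ± 0.47 that was not called in the main fit (FDR 0.0516). It was called by DESeq2 (-1.22, FDR 0.0184) and by edgeR with RLE factors (-1.19, FDR 0.0467) or with Rn45s and Rpph1 removed (-1.21, FDR 0.0435). The Fmod difference was also called without WT vehicle normoxia 2, KO vehicle normoxia 1, WT vehicle hypoxia 1 or KO vehicle hypoxia 1 (FDR 0.00429 to 0.0442). Under POVPC 6 of 9 genes differed, against 30% of all genes, and Prelp (4.26 ± 0.56), Ogn (1.97 ± 0.14), Aspn (1.74 ± 0.24), Dcn (1.31 ± 0.12) and Lum (FDR 0.00132) again fell less in KO cells. Fmod fell more in KO cells (-1.89 ± 0.54), while Bgn (-0.35 ± 0.20), Podn (0.19 ± 0.59) and Vcan (-0.26 ± 0.12) were not called. Without WT POVPC hypoxia 3 or KO POVPC hypoxia 2 the Fmod call was lost (FDR 0.0819 and 0.0502). Vcan was called by DESeq2 (-0.31, FDR 0.035) and by edgeR with RLE factors (-0.30, FDR 0.0458) or halved counts (-0.30, FDR 0.0451). It was also called without WT POVPC hypoxia 2 (-0.34, FDR 0.037) or KO POVPC hypoxia 1 (-0.35, FDR 0.0301). Without the 3 shallowest libraries Bgn (-0.80, FDR 0.00122) and Vcan (-0.46, FDR 0.0162) were called as well.

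The KO line differed from the WT line in all 9 genes under vehicle in normoxia, in both directions. Lum, Aspn, Prelp and Vcan were higher in KO cells and Dcn, Bgn, Fmod, Ogn and Podn were lower, where 29.8% of all genes were called higher and 30.8% lower (49.1% of the calls higher, or 37% with library size alone). Aspn was the most raised, at 259 ± 30.7 CPM in KO cells against 78.0 ± 3.16 CPM in WT cells (SD, n = 3), a log2 fold change of 1.73 ± 0.10 (FDR 3.2e-15). Lum averaged 76.8 ± 7.22 CPM in KO and 32.0 ± 1.77 CPM in WT cells, a log2 fold change of 1.26 ± 0.12. Fmod was the most lowered, with 13.6, 23 and 26.6 CPM in KO cells against 81.3, 117 and 109 CPM in WT cells, a log2 fold change of -2.27 ± 0.20 (FDR 2.36e-09). The KO and WT libraries did not overlap for 8 of the 9 genes, against 65.8% of all genes, and overlapped for Prelp, whose log2 fold change of 0.69 ± 0.23 (FDR 0.0129) became 0.37 (FDR 0.121) without KO vehicle normoxia 3 and 0.57 (FDR 0.0652) without WT vehicle normoxia 1. With library size alone it was 0.55 (FDR 0.0624).

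Aspn, Lum and Prelp were higher in KO than in WT cells, and Bgn, Fmod and Podn lower, in each of the 4 culture settings. Under POVPC in normoxia 4 of 9 were higher and 4 lower, against 29.5% and 30.7% of all genes. Aspn had 277, 279 and 286 CPM in KO cells there, against 47.9, 49.7 and 43 CPM in WT cells, a log2 fold change of 2.58 ± 0.10. Podn had 6.87, 5.74 and 5.96 CPM in KO cells and 29.2, 27.7 and 29.5 CPM in WT cells, a log2 fold change of -2.22 ± 0.18. The groups lay far apart for both. Dcn, Ogn and Vcan did not keep 1 direction. Ogn averaged 1579 ± 28.2 CPM in KO and 2307 ± 105 CPM in WT cells under vehicle in normoxia, a log2 fold change of -0.55 ± 0.10. With POVPC in normoxia it averaged 1660 ± 59.7 CPM in KO and 666 ± 45.4 CPM in WT cells, a log2 fold change of 1.32 ± 0.10. In hypoxia Ogn was higher in KO cells both with POVPC (3.28 ± 0.11) and with vehicle (2.47 ± 0.10). Dcn was lower in KO cells in normoxia (-0.44 ± 0.09 with POVPC and -0.54 ± 0.09 with vehicle), was higher under POVPC in hypoxia (0.87 ± 0.09), and was not called under vehicle in hypoxia (0.09 ± 0.09, 95% interval -0.08 to 0.26).

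In hypoxia the lines lay far apart in both directions. Under vehicle Aspn averaged 13.1 ± 2.61 CPM in KO and 0.336 ± 0.128 CPM in WT cells, a log2 fold change of 5.21 ± 0.18 (FDR 9.44e-20). Prelp was higher in KO cells by 3.13 ± 0.33 under vehicle and by 5.11 ± 0.47 under POVPC, and Aspn by 4.32 ± 0.19 under POVPC. Lum was at least 13.1-fold higher in KO cells under vehicle, from 28 counts in the KO and 0 in the WT group, and at least 11.2-fold higher under POVPC. Against these, Fmod was lower in KO cells by a log2 fold change of -3.45 ± 0.37, Podn by -2.83 ± 0.42 and Bgn by -2.21 ± 0.15 under vehicle in hypoxia. Of the 9 genes, 5 were higher and 3 lower in KO cells in each hypoxia setting, against 29.5% and 30.4% of all genes under vehicle and 30% and 27.6% under POVPC. Vcan differed by 0.27 ± 0.08 under vehicle in hypoxia (FDR 0.00779), but not past the threshold with library size alone (0.22, FDR 0.0993) or without WT vehicle hypoxia 2 (0.20, FDR 0.0644). Under POVPC Vcan had log2 fold changes of 0.10 ± 0.08 in normoxia and -0.16 ± 0.08 in hypoxia and was not called in the main fit. In hypoxia it was called by DESeq2 (-0.21, FDR 0.0261) and by edgeR with RLE factors (-0.21, FDR 0.0317) or halved counts (-0.20, FDR 0.0338). It was also called there without WT POVPC hypoxia 2 (-0.24, FDR 0.0306) or KO POVPC hypoxia 1 (-0.25, FDR 0.0233).

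**Figure D3:**
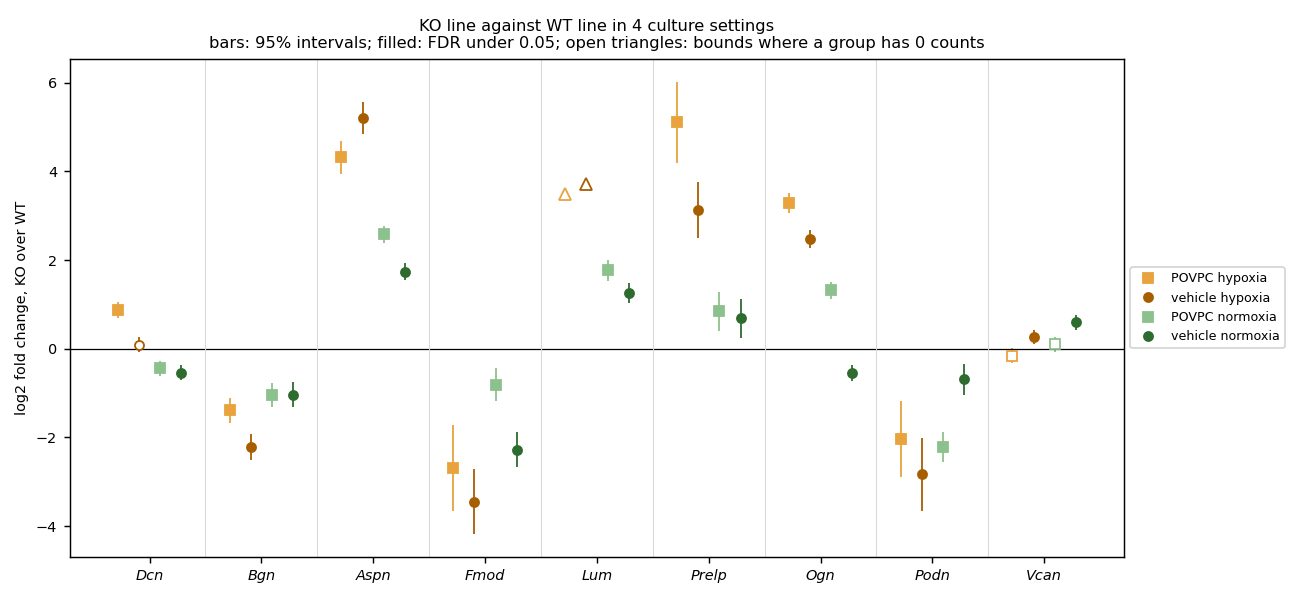
Log2 fold change, KO over WT, of each gene (bars, 95% intervals) in hypoxia (orange and brown) and normoxia (light and dark green), with POVPC as squares and vehicle as circles. Open triangles mark lower bounds for Lum. Aspn, Lum and Prelp lie above 0 and Bgn, Fmod and Podn below 0 in all 4 settings.

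Markers of another mesenchymal cell type moved with the lines. The 9 adventitial fibroblast markers summed to 1092 to 1112 CPM in KO and 366 to 398 CPM in WT cells under vehicle in normoxia. Of these, 6 were higher and 2 lower in KO cells, against 29.8% and 30.8% of all genes, and none was at 0. Among the higher ones Ly6a averaged 275 ± 19.6 CPM in KO and 9.22 ± 0.471 CPM in WT cells. In hypoxia under vehicle the sums were 337 to 386 CPM in KO and 80.8 to 84.8 CPM in WT cells. The 10 contractile markers had 8 lower and 1 higher in KO cells in normoxia under vehicle, against the same shares of all genes. Their sums were lower in hypoxia than in normoxia in both lines (68.4 to 73.9 CPM in KO and 77.5 to 86.6 CPM in WT cells in hypoxia). Whether the make-up of the lines has a part in the differences between the proteoglycan genes was not tested.

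POVPC changed the proteoglycan genes of WT cells in opposite directions and moved few in KO cells. In WT cells in normoxia 2 of 9 genes were higher and 4 lower, against 13.1% and 13.8% of all genes (48.7% of the calls higher, or 31.4% with library size alone). Podn had 29.2, 27.7 and 29.5 CPM with POVPC and 8.71, 11.1 and 9.94 CPM with vehicle in WT cells, and rose by 1.54 ± 0.17 on the log2 scale (FDR 3e-08). Vcan had 713, 795 and 746 CPM with POVPC and 408, 465 and 450 CPM with vehicle, and rose by 0.77 ± 0.08 (FDR 2.79e-08). Ogn moved the other way, with 703, 680 and 615 CPM under POVPC and 2191, 2396 and 2334 CPM under vehicle, and fell by 1.79 ± 0.10 on the log2 scale (FDR 1.51e-14). Fmod (-1.25 ± 0.19), Aspn (-0.73 ± 0.10) and Lum (-0.70 ± 0.12) also fell. Dcn (-0.22 ± 0.09, FDR 0.0674), Bgn (0.22 ± 0.14) and Prelp (0.19 ± 0.23) were not called in the main fit. Rn45s took 3.23 to 11.1% of counts with POVPC and 1.31 to 1.5% with vehicle in these libraries, and all 6 calls held after Rn45s and Rpph1 were removed. Contractile markers summed to 183 to 221 CPM with POVPC and 380 to 437 CPM with vehicle in WT cells, and adventitial fibroblast markers to 679 to 711 CPM and 366 to 398 CPM, and their part in these changes was not tested. With library size alone, which lowered the median of all genes by 0.11, Dcn was also called at -0.33 (FDR 0.0256). In edgeR on the compared groups alone Dcn (-0.20, FDR 0.00934) and Bgn (0.24, FDR 0.0048) were called.

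In WT cells in hypoxia 1 gene, Vcan, was higher with POVPC (0.29 ± 0.08, FDR 0.0137), against 8.22% of all genes, and 5 were lower, against 12.7%. The Vcan call was lost with library size alone (0.27, FDR 0.115) and without WT vehicle hypoxia 2 (FDR 0.0877) or WT POVPC hypoxia 3 (FDR 0.0973). Dcn fell by 1.31 ± 0.09 on the log2 scale, at 173, 217 and 250 CPM with POVPC against 534, 552 and 497 CPM with vehicle. Ogn fell by 1.24 ± 0.11, Fmod by 1.52 ± 0.30, Bgn by 0.50 ± 0.14 and Prelp by 2.02 ± 0.64. WT POVPC hypoxia 1 and 2 were among the 3 shallowest culture libraries. With the 3 shallowest libraries left out, which left 1 library in this group whose spread was taken from the other groups, 3 of 9 genes were called in place of 6. Bgn then changed by -0.10 (FDR 0.784), Fmod by -1.32 (FDR 0.0723) and Prelp by -1.35 (FDR 0.335). Lum had 0 counts in both groups.

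In KO cells none of the 9 genes was called for POVPC in normoxia by edgeR, where 0.0414% of all genes were called. Vcan (0.27 ± 0.08, FDR 0.539) was the 1 gene of the 9 at an unadjusted p under 0.05, against 7.42% of all genes, and DESeq2 called none of the 9. Their log2 fold changes lay between -0.18 and 0.35. Without KO vehicle normoxia 3 Vcan was called at 0.36 (FDR 0.0385). In hypoxia 2 of 9 genes were lower in KO cells with POVPC, Dcn (-0.53 ± 0.09, FDR 0.000433) and Ogn (-0.42 ± 0.10, FDR 0.0105), against 2.09% of all genes. Dcn had 402, 380 and 389 CPM with POVPC and 554, 565 and 568 CPM with vehicle there. The Ogn call was lost by edgeR without KO vehicle hypoxia 2, KO vehicle hypoxia 3 or KO POVPC hypoxia 3 (FDR 0.0652 to 0.0702), and with library size alone (-0.33, FDR 0.104).

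The difference between the lines in the POVPC response was tested directly. In normoxia 6 of 9 genes differed, against 16.2% of all genes. Ogn (1.86 ± 0.14, KO minus WT response), Fmod (1.47 ± 0.27), Aspn (0.85 ± 0.14) and Lum (0.51 ± 0.16, FDR 0.0325) fell in WT cells and had log2 changes of -0.18 to 0.21 in KO cells, while Podn (-1.53 ± 0.25) and Vcan (-0.50 ± 0.12) rose in WT cells. The Lum call was lost without any 1 of 8 of the 12 libraries (FDR 0.058 to 0.105), and the Vcan call with library size alone (-0.32, FDR 0.177). In hypoxia 4 of 9 differed, against 9.37% of all genes: Bgn (0.82 ± 0.20), Ogn (0.82 ± 0.15), Dcn (0.78 ± 0.12) and Vcan (-0.43 ± 0.12, and -0.32 with FDR 0.243 on library size alone). The Vcan call was also lost without WT vehicle hypoxia 2, WT POVPC hypoxia 3 or KO POVPC hypoxia 3 (FDR 0.0541 to 0.0734). Prelp was not called in the main fit. DESeq2 called it (2.06, FDR 0.00352), as did edgeR on the compared groups alone (2.00, FDR 0.013), with 16 counts in WT POVPC hypoxia. The Bgn difference was 0.40 (FDR 0.307) without the 3 shallowest libraries. Within WT cells the POVPC response also depended on oxygen for 7 of 9 genes, against 23.5% of all genes. The Aspn call among them was lost without WT POVPC hypoxia 3 (1.32, FDR 0.0652). Its WT hypoxia values rest on 29 counts with POVPC and 27 with vehicle. Podn, raised by POVPC in normoxia, had a log2 change of -0.56 ± 0.31 in hypoxia, and the difference of the responses, hypoxia minus normoxia, was -2.10 ± 0.35 (FDR 4.18e-05). Without the 3 shallowest libraries 3 of these 7 calls remained, those of Dcn, Aspn and Podn. Within KO cells no gene of the 9 passed that test by edgeR, where 0.642% of all genes did. At an unadjusted p under 0.05 were 3 of the 9, against 9.84% of all genes. DESeq2 called 2 of the 9, Ogn (-0.50) and Vcan (-0.42), and 260 genes in all.

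**Figure D4:**
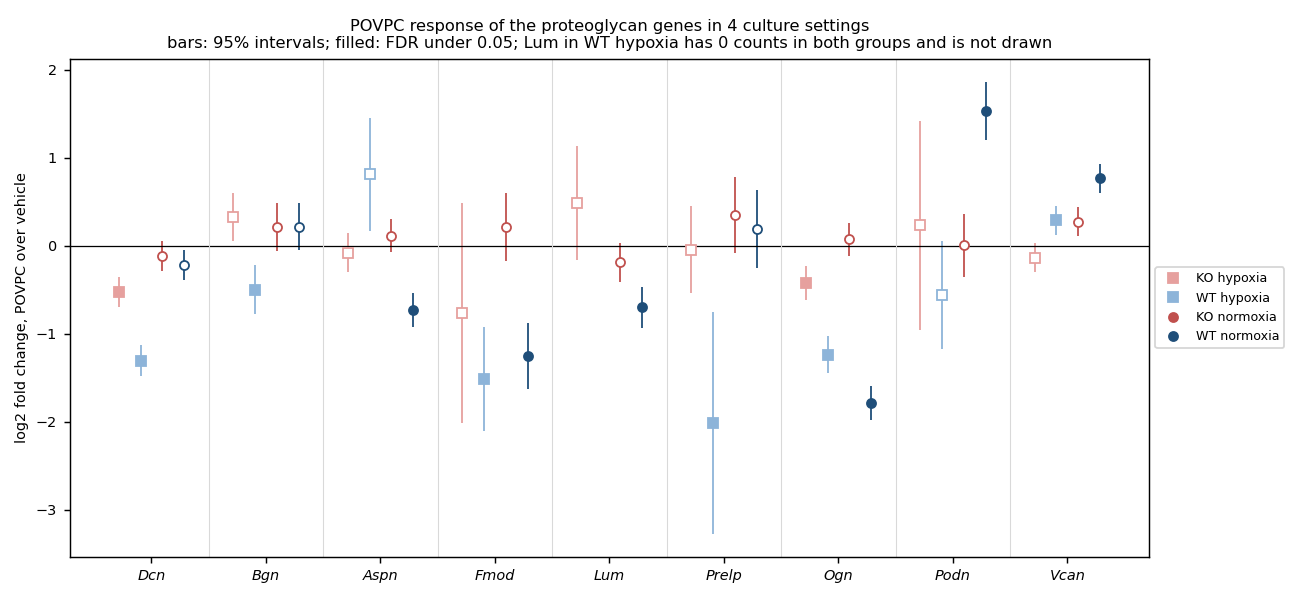
Log2 fold change, POVPC over vehicle, of each gene (bars, 95% intervals) in hypoxia (squares) and normoxia (circles) in KO cells (red) and WT cells (blue). Filled symbols passed an FDR of 0.05. In normoxia the WT values run from -1.79 for Ogn to 1.54 for Podn, and the KO values stay between -0.18 and 0.35.

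On the scale used here, the closest pairs of genes joined different structural classes. The likeness of 2 genes was measured as the root mean square (RMS) difference of their log2(CPM + 0.5) over the 8 culture group means, each gene centred on its own mean. Among the 9, the closest pair was Bgn and Podn (0.70), followed by Dcn and Podn (0.85) and by the neighbours Aspn and Ogn (0.86), and the least alike were Aspn and Vcan (2.80). The added 0.5 shrinks falls to levels near or below it, as for Podn at 0.222 CPM in KO cells in hypoxia under vehicle. The fall of Podn there is smaller on this scale than by edgeR, so its likeness to Bgn and Dcn depends in part on the added 0.5. Values of Lum, Fmod, Aspn and Prelp carry the same limit. Among all tested genes, Postn, a matricellular protein of fibroblasts, was the closest to Prelp (0.68), Ogn (0.75) and Aspn (0.82). Cd248, a pericyte and fibroblast surface protein, was the closest to Lum (0.35), Islr to Fmod (0.38), Chrd, a BMP antagonist, to Podn (0.36), Fat4, a giant cadherin, to Dcn (0.32) and Sema3f, a secreted semaphorin, to Bgn (0.19). Vcan was most like Cdca8 (0.10) and Cenpl (0.12), which act at the centromere in mitosis. The median RMS over all genes ran from 0.54 for Vcan to 3.04 for Aspn, so a low RMS is easier to reach for a gene that moves little. These are descriptions of 8 group means with no test.

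Other genes of the pathway, from lists chosen with earlier results of these data known, moved with hypoxia as follows, where 32.6% of all genes were called higher and 32.8% lower in KO cells, and 32.8% higher and 35.3% lower in WT cells. Of 9 fibrillar collagen genes, 7 were lower and 1 higher in KO cells and 8 were lower in WT cells under vehicle, with medians of -1.54 and -3.01. Col1a2 fell by 4.89 ± 0.12 on the log2 scale in KO cells, at 196 ± 21.5 CPM in hypoxia against 5802 ± 959 CPM in normoxia, and by 3.61 ± 0.12 in WT cells. Of the 10 tested proteases that cut versican or the small proteoglycans, 6 were lower and 3 higher in KO cells and 8 lower and 2 higher in WT cells. Adamts5, a versican and aggrecan cleaving protease, went in opposite directions, with 85 ± 8.67 CPM in hypoxia against 41.6 ± 3.16 CPM in normoxia in KO cells, and 29.2 ± 1.04 against 303 ± 2.06 CPM in WT cells. Of 9 other small leucine-rich proteoglycan genes tested, 5 were lower and 2 higher in KO cells and 6 lower and 2 higher in WT cells. Omd, which lies between Aspn and Ogn, encodes osteomodulin, a keratan sulfate protein of bone. It had 54.9 ± 4.45 CPM in hypoxia and 80.5 ± 13.9 CPM in normoxia in KO cells, and 33 ± 0.612 and 160.4 ± 2.5 CPM in WT cells.

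Genes that build the chondroitin or dermatan sulfate chains showed no common direction in hypoxia in WT cells, with 8 of 21 higher and 8 lower (median -0.04). In KO cells 5 were higher and 12 lower (median -0.45). Csgalnact1, which starts chondroitin chains, had 0 counts in WT hypoxia against 9.39 ± 0.568 CPM in WT normoxia, and 0.613 ± 0.178 against 6.12 ± 0.999 CPM in KO cells. Of 4 tested keratan sulfate genes 1 was higher and 2 lower in each line. Hyaluronan genes and link proteins had 2 of 10 higher and 6 lower in KO cells and 2 higher and 5 lower in WT cells. Has2, a hyaluronan synthase, had 0.0281 ± 0.0487 CPM in hypoxia against 2.32 ± 0.431 CPM in normoxia in KO cells. Another list of 10 genes held TGF-beta ligands and receptors, Toll-like receptors (Tlr2 and Tlr4) and growth factor receptors (Egfr, Met and Igf1r). In KO cells 3 of the 10 were higher and 6 lower, and in WT cells 2 were higher and 5 lower. Tlr4, a receptor for biglycan and decorin, was higher in hypoxia in both, by 1.14 ± 0.07 and 1.64 ± 0.08 in KO and WT cells. Egfr, which decorin binds, had log2 fold changes of -0.85 ± 0.09 in KO and -2.13 ± 0.09 in WT cells.

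Some genes of these lists also differed between the KO and WT lines under vehicle in normoxia. Of all genes, 29.8% were called higher and 30.8% lower in KO cells there. Of 21 chain synthesis genes 4 were higher and 13 lower in KO cells (median -0.41), including Dse, which makes dermatan sulfate (125 ± 10.5 CPM in KO against 276 ± 5.38 CPM in WT cells). Proteases split into 5 higher and 5 lower, led by Mmp3 at 11.7 ± 1.51 CPM in KO and 2515 ± 119 CPM in WT cells. Fibrillar collagens had 3 of 9 higher and 1 lower, with Col3a1 at 38838 ± 1743 CPM in KO against 7370 ± 160 CPM in WT cells. Other small proteoglycan genes had 5 of 9 lower and none higher in KO cells, where 60.6% of all genes were called in either direction.

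In lesions none of the 9 genes differed between KO and WT animals past an FDR of 0.05 in edgeR, where 0 of 14993 genes did (0% called), and no gene's KO and WT animals were fully separated, against 8.8% of all genes. Podn (FDR 0.289) was the 1 gene of the 9 at an unadjusted p under 0.05, against 14.8% of all genes, and DESeq2 called none of the 9 and 489 genes in all. Podn had 21.9, 25.3, 23.6 and 34.3 CPM in KO animals and 33.4, 30.9, 38.9 and 32.5 CPM in WT animals, a log2 fold change of -0.37 ± 0.15. KO animal 4 was the only one within the WT range. Lum had 701, 900, 1193 and 1390 CPM in KO animals against 278, 776, 1007 and 386 CPM in WT animals, a log2 fold change of 0.77 ± 0.41 (95% interval -0.03 to 1.58, FDR 0.422). Both groups were wide and overlapped, and leaving out 1 animal at a time gave 0.51 (without WT animal 1) to 1.12 (without WT animal 3). Dcn had 1376, 1243, 1701 and 1426 CPM in KO animals and 711, 1236, 1387 and 1010 CPM in WT animals, a log2 fold change of 0.40 ± 0.21 (FDR 0.403).

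The remaining genes overlapped too. Fmod averaged 44.6 ± 16.4 CPM in KO and 77.1 ± 50.5 CPM in WT lesions (SD, n = 4), with WT animal 3 at 146 CPM and the other WT animals at 37.3 to 82.9. Its log2 fold change of -0.79 ± 0.48 was -0.28 without WT animal 3. That animal was the highest of the WT animals for each of the other listed genes too. The 8 chondrocyte markers, which were highest in the same WT animal, summed to 195, 156, 565 and 264 CPM in KO animals 1 to 4 and to 810, 972, 1896 and 244 CPM in WT animals 1 to 4, and none of them was at 0 in either group, and their part in the Fmod values was not tested. Prelp had 259, 282, 323 and 409 CPM in KO animals and 383, 427, 429 and 324 CPM in WT animals, so KO animal 4 alone reached into the WT range, and its log2 fold change was -0.30 ± 0.16 (FDR 0.421). The log2 fold change of Bgn was -0.15 ± 0.24, that of Ogn 0.10 ± 0.24, that of Aspn 0.21 ± 0.24 and that of Vcan -0.02 ± 0.16, with Vcan at 225 ± 34.6 CPM in KO and 229 ± 46.2 CPM in WT lesions. The 95% interval of Vcan ran from -0.34 to 0.30, and none of the intervals of these 6 genes excluded 0.

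Marker sums of the lesion cell types differed between the groups beside these values. Macrophage markers summed to 4374 to 9889 CPM in KO and 2681 to 3969 CPM in WT lesions, contractile markers to 5229 to 7513 CPM in KO and 7268 to 11260 CPM in WT lesions, and adventitial fibroblast markers to 1282 to 1444 CPM in KO and 1073 to 1340 CPM in WT lesions. Endothelial markers reached 1580 to 1851 CPM in KO and 1200 to 1455 CPM in WT lesions, and adipocyte markers 3548 to 5213 CPM in KO and 2618 to 3965 CPM in WT lesions. The part of cell make-up in the proteoglycan levels of lesions was not tested. Of the pathway lists no gene was called in lesions, and their median log2 fold changes ran from -0.18 for the fibrillar collagens to 0.30 for keratan sulfate synthesis.

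**Figure D5:**
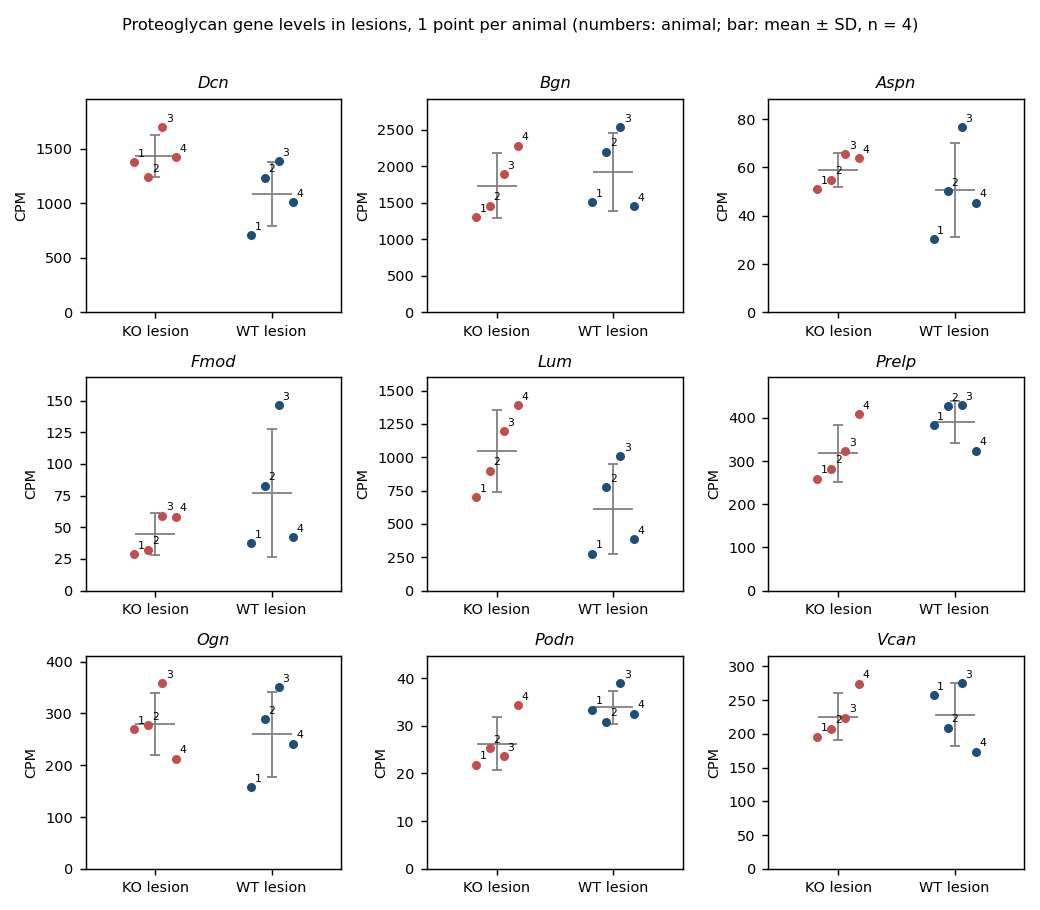
CPM of each gene in lesions, 1 numbered point per animal, KO (red) left of WT (blue), with the mean ± SD of 4 animals. The groups overlap for all 9 genes. WT animal 3 is the highest WT animal for each gene and raises the WT value of Fmod, at 146 CPM.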

How the data were processed

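Total RNA was sequenced on an Illumina HiSeq 2000, per the labels' protocols. The deposited counts were made by the authors with featureCounts 1.4.4 on an mm9 annotation without strand, per the file headers, as fragments for lesions and as single reads for cultures, so their depths are not alike. The submitters' processing notes also name CASAVA, STAR, Subread and DESeq2. The deposited gene length column served for values per kilobase. Without strand, reads of a gene and of an antisense partner cannot be told apart.

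The 2 tables were fitted apart in edgeR 4.0.16 (R 4.3.3, limma 3.58.1): TMM factors, filterByExpr (minimum count 10, minimum total 15), robust quasi-likelihood tests and Benjamini-Hochberg adjustment over 14993 lesion and 14496 culture genes. The 24 culture libraries shared 1 model. SEs are the log2 fold change over the root of F, and 95% intervals are 1.96 SEs. Where a group had no count the floor was 3 counts over the group. The scripts were tested on simulated counts. DESeq2 1.42.0 was an alternative, and the others are named in the closing section. No libraries were identical.

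The 9 genes and the gene lists were chosen with earlier results of these data known. All 9 were tested in every comparison, but not all 9 are named for each one. From each list at most the 4 genes with the smallest p in a comparison are named, or the same gene in the other line. Pairing of samples by replicate number was checked through correlated deviations: r ran from -0.67 to 0.38 over 13 comparisons, and all pairs exceeded 0.1 in 1 of them, hypoxia against normoxia in KO cells under POVPC.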

Additional observations from a re-analysis of the deposited data

Results flagged for a closer look

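The responses below differed between the lines, or between hypoxia and normoxia, by a test of the difference itself (edgeR interaction term, FDR under 0.05), and each value is a difference of log2 fold changes. The response to POVPC in normoxia, KO minus WT, differed for Lum (0.51), Fmod (1.47), Ogn (1.86), Aspn (0.85), Podn (-1.53) and Vcan (-0.50). In hypoxia the POVPC response, KO minus WT, differed for Dcn (0.78), Bgn (0.82), Ogn (0.82) and Vcan (-0.43).

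The response to hypoxia under vehicle, KO minus WT, differed for Dcn (0.63), Bgn (-1.18), Ogn (3.02), Aspn (3.48), Prelp (2.44), Podn (-2.14) and Vcan (-0.33), and for Lum at an FDR of 0.000135, with no fold because the WT hypoxia libraries had no count. Under POVPC the hypoxia response, KO minus WT, differed for Dcn (1.31), Fmod (-1.89), Ogn (1.97), Aspn (1.74) and Prelp (4.26), and for Lum at an FDR of 0.00132. In WT cells the POVPC response in hypoxia minus that in normoxia differed for Dcn (-1.09), Bgn (-0.72), Ogn (0.56), Aspn (1.55), Prelp (-2.21), Podn (-2.10) and Vcan (-0.48). These tests share libraries, so they are not independent. No lesion animal stood out from its group for any of the 9 genes by Dixon's criterion in 18 tests.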

How the results depend on the processing

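Over 2875 single gene values under other settings (RLE factors, library size alone, no filter, DESeq2, a replicate block, the compared groups alone, halved counts, Rn45s and Rpph1 removed, libraries left out), 2782 kept direction and side of the threshold, 58 lost a call, 35 gained one and 0 of the called values reversed; a change of sign of a value that was never called counted as kept. Of 320 counts of genes called, 309 stayed within 1.5 times. Without the 3 shallowest libraries 3 of 9 genes, against 6, were called for POVPC in WT hypoxia, and 3, against 7, for its dependence on oxygen in WT cells. With library size alone 1 gene, against 2, was called for POVPC in KO hypoxia. DESeq2 called 2, against 0, for the dependence of the POVPC response on oxygen in KO cells. Leaving out 1 library at a time gave 0 to 1 for POVPC in KO normoxia (Vcan, without KO vehicle normoxia 3), 1 to 2 for POVPC in KO hypoxia, 4 to 5 for POVPC in WT hypoxia against 6, and 0 to 1 for the dependence of the POVPC response on oxygen in KO cells, where Dcn was called without KO vehicle normoxia 1, Ogn without KO vehicle hypoxia 1 and Vcan without KO vehicle normoxia 3. In WT hypoxia these runs lost Prelp, Bgn or Vcan. The cause of these changes was not tested, beyond the fewer libraries. With the replicate block 9 genes, against 8, differed between lines in the hypoxia response under vehicle, as Fmod was then called at -1.11 (FDR 0.044), and the block changed no other count, including the 9 of the comparison whose numbers paired the samples. Library size alone moved the median of all genes by -0.14 for KO against WT under vehicle in normoxia and by up to 0.17 in the tests of differences between responses. Values near 1 CPM or below rest on few counts: Lum and Podn in hypoxia, Fmod in KO cells in hypoxia, and Aspn and Prelp in WT cells in hypoxia. The 3 or 4 libraries a group limit what could be detected.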
